A study of Daphnia magna with 30 samples.

Results

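The comparison of an 8L:16D short day with the 16L:8D control in *Daphnia magna* holds 12 of the 30 arrays of the series, 6 of animals titled 8L:16D and 6 of animals titled 16L:8D, and the samples were chosen by those titles alone. In 8L:16D the lamp was on for 8 h and off for 16 h, and in 16L:8D those hours were exchanged, so that the photoperiods mirror each other. The animals of both groups were 21 d old adult females of 1 genotype, from a culture begun with a single individual and kept at 16L:8D, and were reared from newborns at 25 °C under their photoperiod. Each photoperiod had a box and lamp of its own with 3 chambers, each loaded with 20 animals, and 2 animals per chamber, A and B, were frozen whole with the contents of the brood pouch. The other photoperiods of the series were 4L:20D, 12L:12D and 20L:4D. Chambers of a photoperiod shared their box and lamp, so photoperiod and box cannot be told apart, and a result on 1 clone holds for that clone.

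*Daphnia* are small freshwater crustaceans that reproduce clonally while conditions are good and switch to males and resting eggs in response to cues of season, day length among them. An adult female moults throughout life, and the build-up and shedding of cuticle, the laying of eggs into the brood pouch and the release of young run as 1 linked cycle. A whole-animal RNA level mixes all tissues and the brood, and fewer cells of a kind and less RNA per cell cannot be told apart in it.

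Transcript abundance was measured with Agilent 1-colour arrays of 14338 probes. A level is the log2 of the processed signal minus the 75th percentile of that array, so that 0 is the 75th percentile, and a log2 fold change is the mean of the 3 chambers of 8L:16D minus the mean of the 3 chambers of 16L:8D. Precision is limited by how many arrays there were. Between 82.9% and 90.0% of probes were well above background on the 8L:16D arrays, and between 77.5% and 85.8% on the 16L:8D arrays. The mean of the spike-in RNA added to each sample had a median of 0.20 (range -0.03 to 0.44) on the 8L:16D arrays and 0.64 (range 0.32 to 0.75) on the 16L:8D arrays, on the log2 scale after scaling. Of the 2 scan dates, the second held 2 arrays of 16L:8D and none of 8L:16D.

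Animals within a photoperiod differed widely. The first and second axes of the spread within photoperiods, fitted over all 30 arrays, held 41.3% and 18.9% of that spread. Positions along these axes are given relative to the mean of all 30 arrays, so they keep differences between photoperiods. On axis 2, 5 of the 6 8L:16D animals lay above 0, against 1 of the 6 16L:8D animals. The exceptions were animal B of 8L:16D chamber 2, at -77.8, among the 16L:8D animals, and animal B of 16L:8D chamber 2, at 57.4, among the 8L:16D animals. Chamber mates could lie far apart. The distance between the animals A and B over all probes was 200.9, 172.8 and 75.7 log2 units in the 8L:16D chambers and 62.2, 144.1 and 118.4 in the 16L:8D chambers. Whether the animals B of chamber 2 were exchanged is not settled by the labels, and both were kept.

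**Figure D1:**
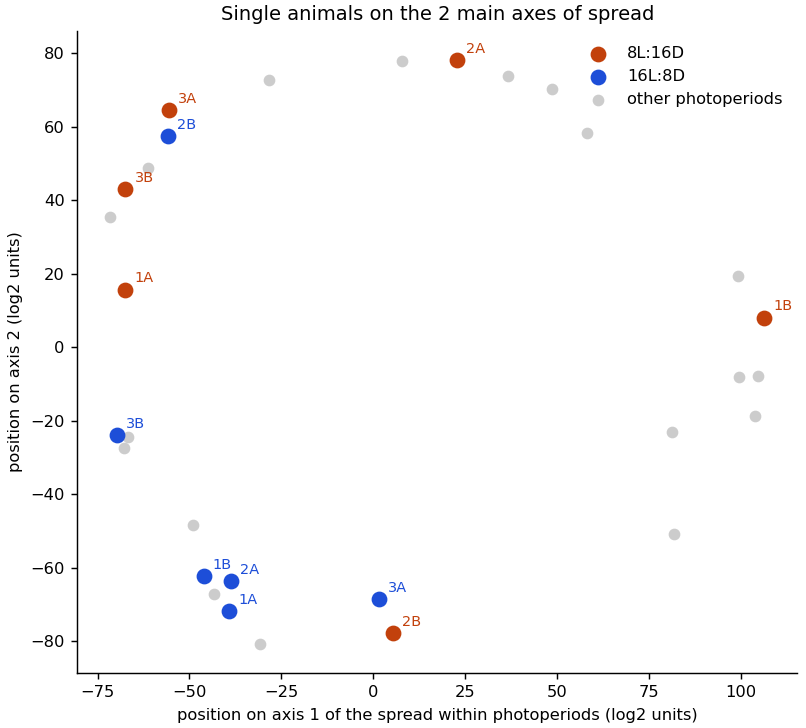
Each point is 1 animal, placed by its position on axis 1 (horizontal) and axis 2 (vertical) of the spread within photoperiods, in log2 units relative to the mean of all 30 arrays, with chamber number and animal letter beside the 8L:16D (orange) and 16L:8D (blue) animals and the animals of the other photoperiods in grey. Animal 2B of 8L:16D (-77.8 on axis 2) and animal 2B of 16L:8D (57.4) each sat among the other photoperiod's animals.

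A transcript was called when limma's F test over the 5 photoperiods had p under 0.01, the test of 8L:16D minus 16L:8D had p under 0.05 and the fold change was at least 1.5, the thresholds of the study's methods. These p values are unadjusted, and "rose" and "fell" are used below of called transcripts only. Of 14338 transcripts, 518 (3.61%) were called, 249 (1.74%) higher and 269 (1.88%) lower in 8L:16D. The median fold change was 2.97 among those that rose and 2.35 among those that fell, and 197 changed at least 4-fold, of which 90 were lower. Chamber means of both photoperiods did not overlap in 380 of the 518, 151 higher and 229 lower, against 20.2% of all transcripts, and the 6 and 6 animals did not overlap in 32 of the 518, 6 higher and 26 lower, against 1.22% of all transcripts. The median log2 fold change of all transcripts was -0.04.

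After Benjamini-Hochberg adjustment over all transcripts 4 (0.0279%) had a limma p under 0.05, 1 higher and 3 lower in 8L:16D. The count was 8 at an adjusted p under 0.1 and 193 at under 0.2, and the median adjusted p of the 518 called transcripts was 0.22, with a highest value of 0.36. Without both animals B of chamber 2, which were picked by their values so that the count is no test, 1146 transcripts were called, of them 499 of the 518, and 1101 passed an adjusted p of 0.05. With the chamber positions on both axes as covariates 56 were called, 18 of them among the 518, with the spike-in level as a covariate 187, and without the arrays of the second scan date 117. Without 16L:8D chamber 1 and chamber 3 in turn 287 and 314 were called. The part of axis position, spike-in level and scan date in the calls was not tested beyond these values.

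**Figure D2:**
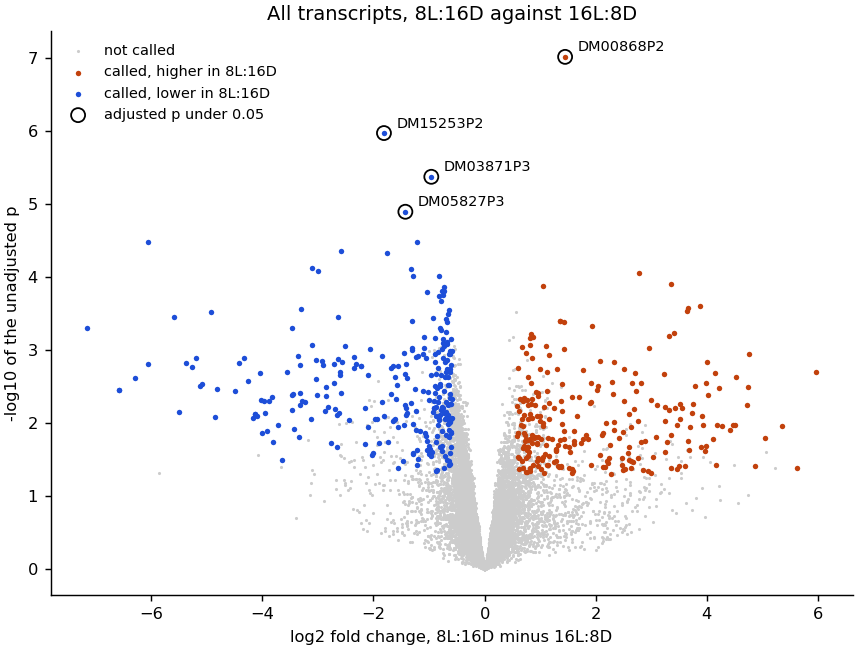
Each point is 1 of 14338 transcripts, by its log2 fold change, 8L:16D minus 16L:8D (horizontal), and the -log10 of its unadjusted limma p (vertical). The 249 called higher (orange) and 269 called lower (blue) spread to both sides, and circles mark the 4 transcripts with an adjusted p under 0.05.

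The transcripts with the smallest adjusted p and some of those described below were measured by the following array probes, printed 5′ to 3′ as the study's table of probes gives them, because these oligonucleotides are what carried the results; their genomic position was not analysed here. The chorion peroxidase and cuticle protein probes are shown because probes that share a name differ in sequence, with no shared run over 7 bases. In the tyrosine 3-monooxygenase pair the capitals mark the longest run shared by both probes.
DM00868P2, glucose dehydrogenase: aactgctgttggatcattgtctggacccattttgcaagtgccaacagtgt
DM15253P2, hypothetical protein: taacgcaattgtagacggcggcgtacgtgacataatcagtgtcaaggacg
DM05827P3, hypothetical protein: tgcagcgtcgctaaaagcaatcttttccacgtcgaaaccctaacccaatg
DM11268P4, uncharacterized protein: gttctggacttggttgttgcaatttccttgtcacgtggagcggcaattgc
DM06742P2, uncharacterized protein: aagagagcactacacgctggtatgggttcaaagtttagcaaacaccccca
DM08522P1, cuticle protein: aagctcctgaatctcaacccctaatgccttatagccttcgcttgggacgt
DM12885P2, cuticle protein: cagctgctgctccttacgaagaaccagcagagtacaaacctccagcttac
DM03869P1, chorion peroxidase: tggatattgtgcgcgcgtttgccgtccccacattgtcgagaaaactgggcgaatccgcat
DM08909P1, chorion peroxidase: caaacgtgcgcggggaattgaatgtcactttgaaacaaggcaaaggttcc
DM08907P2, chorion peroxidase-like: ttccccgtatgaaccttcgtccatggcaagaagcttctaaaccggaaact
DM10810P1, kainate receptor: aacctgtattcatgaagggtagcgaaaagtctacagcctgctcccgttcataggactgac
DM09476P2, F-box/LRR-repeat protein: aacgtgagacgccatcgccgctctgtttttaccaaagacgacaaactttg
DM00285P3, nuclear receptor 1D: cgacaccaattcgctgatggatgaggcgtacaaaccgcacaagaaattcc
DM00246P1, tyrosine 3-monooxygenase: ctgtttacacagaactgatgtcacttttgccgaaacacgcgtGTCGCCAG
DM06858P3, tyrosine 3-monooxygenase: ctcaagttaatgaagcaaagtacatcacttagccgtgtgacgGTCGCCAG
Named transcripts take the names of the study's supplementary table of 959 probes, which was chosen in part on these animals, so counts among named transcripts describe that choice as well as the photoperiod. Of those probes, 239 (24.9%) were called, 102 (10.6%) higher and 137 (14.3%) lower.

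Glucose dehydrogenase (DM00868P2), an oxidoreductase that in insects takes part in cuticle hardening and sperm storage, had the smallest adjusted p of the comparison. Its level was -3.45, -3.25 and -3.29 in the 8L:16D chambers and -4.89, -4.74 and -4.70 in the 16L:8D chambers. All 6 animals of 8L:16D lay above all 6 of 16L:8D. It was 2.73-fold higher in 8L:16D (log2 fold change 1.45 ± 0.13, limma SE, adjusted p = 0.00139), and within the 1 slide that carried an animal of each photoperiod the difference was 1.46. That slide held animal B of 8L:16D chamber 2 and animal A of 16L:8D chamber 3. The transcript was well above background on all 6 arrays of 8L:16D and on 5 of 6 of 16L:8D, and the fold change lost its call in 1 of 24 alternative settings, normexp background correction, where it was 0.39.

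DM15253P2, a hypothetical protein without a known role, averaged -5.52 ± 0.24 in 8L:16D and -3.71 ± 0.22 in 16L:8D (SD of 3 chambers each). Its chamber levels were -5.62, -5.25 and -5.69 in 8L:16D and -3.45, -3.80 and -3.88 in 16L:8D, and the animals did not overlap. It fell by 1.81 ± 0.20 on the log2 scale (limma adjusted p = 0.00766), and by 1.76 within the shared slide. DM05827P3, another hypothetical protein, had levels of 5.18, 5.42 and 5.30 in the 8L:16D chambers and 7.15, 6.58 and 6.45 in the 16L:8D chambers, again with no overlap between animals, and fell by 1.43 ± 0.20 (adjusted p = 0.0458). Both stayed called in all 24 settings, although the log2 fold change of DM15253P2 was only -0.64 with normexp background correction, against -1.22 to -1.56 over all settings for DM05827P3. DM03871P3, the other transcript past the adjusted threshold, was not well above background on any array of either photoperiod and its fold is not given.

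Among called transcripts with a protein name, non-overlapping chambers and a signal well above background on all 12 arrays, 12 rose and 50 fell, and the 10 of each with the widest change are described. The angiopoietin-related transcript DM03958P1, a fibrinogen-like secreted protein by its name, had the widest rise. Its levels were 1.96, -0.27 and 4.42 in the 8L:16D chambers and -4.71, -0.30 and -3.17 in the 16L:8D chambers, a log2 fold change of 4.76 ± 1.12 (adjusted p = 0.174), and single animals ran from -3.89 to 4.56 in 8L:16D and from -5.42 to 4.07 in 16L:8D. The chambers numbered 2 were close to each other, and the difference grew to 7.43 without both animals B. Collagen IV alpha 1-like DM00434P4, a basement membrane protein, behaved likewise. It had chamber levels of -0.56, -0.61 and 2.03 in 8L:16D and -4.05, -0.99 and -3.81 in 16L:8D and a log2 fold change of 3.24 ± 0.83 (adjusted p = 0.183).

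The other rises were smaller. Argininosuccinate synthase (DM00989P1), of the urea and arginine pathway, had chamber levels of -3.12, -3.79 and -3.33 in 8L:16D and -5.02, -4.29 and -5.22 in 16L:8D, giving a log2 difference of 1.43 ± 0.30 (adjusted p = 0.145). The sulfotransferases DM03555P2 and DM12504P2, which attach sulphate to small molecules, rose by 1.37 ± 0.40 and 1.30 ± 0.33 on the log2 scale (adjusted p = 0.216 and 0.179). Prostaglandin D synthase (DM01138P4), named for its vertebrate enzyme, rose by 0.95 ± 0.39 (adjusted p = 0.309) and lost its call in 10 of the 24 settings. Glutamine-fructose-6-phosphate aminotransferase (DM02171P2), which makes the first precursor of the sugar units of chitin, had levels of -0.39, -0.58 and -0.76 in the 8L:16D chambers and -1.61, -1.30 and -1.27 in the 16L:8D chambers. Its log2 fold change was 0.82 ± 0.19 (adjusted p = 0.174), lost in 1 setting. A mitochondrial acyl-CoA synthetase (DM04198P3), which activates fatty acids, rose by 0.76 ± 0.29 (adjusted p = 0.275) and lost its call in 11 settings.

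Falls were led by a chymase (DM07027P3), a serine protease, with levels of 0.33, 1.87 and -1.92 in the 8L:16D chambers and 4.48, 2.06 and 4.12 in the 16L:8D chambers (log2 fold change -3.46 ± 1.05, adjusted p = 0.221). Group XV phospholipase A2 (DM03155P1), a lysosomal lipase, had -2.47, -1.21 and -3.74 in 8L:16D and 2.24, -0.63 and 1.03 in 16L:8D (log2 fold change -3.35 ± 0.80, adjusted p = 0.174). In both transcripts the chambers numbered 2 lay closest together, and within the shared slide the differences were only -0.02 and -0.32. The 8L:16D animal on that slide was animal B of chamber 2, at 5.11 and 1.21. The highest levels in the other 8L:16D animals were 0.595 and -1.858. An amyloid beta A4 transcript (DM05492P2), named for a membrane protein of neurons, fell by 2.56 ± 0.62 (adjusted p = 0.175), and cathepsin O (DM04463P1), a lysosomal protease, by 2.36 ± 0.56 (adjusted p = 0.174). The sulfotransferase DM06652P1 fell by 1.68 ± 0.42 (adjusted p = 0.179), against the direction of the sulfotransferases above. Acetyl-CoA carboxylase (DM02087P1), the committing enzyme of fatty acid synthesis, had levels of -2.17, -1.56 and -2.52 in 8L:16D and 0.48, -0.77 and -1.14 in 16L:8D (log2 fold change -1.61 ± 0.42, adjusted p = 0.186). With the spike-in level as a covariate the phospholipase, amyloid, cathepsin, sulfotransferase and carboxylase transcripts and the chymase were no longer called, at log2 fold changes of -2.67, -1.94, -1.79, -0.83, -1.13 and -3.45 in that order. The same 6 calls were lost without the arrays of the second scan date.

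**Figure D3:**
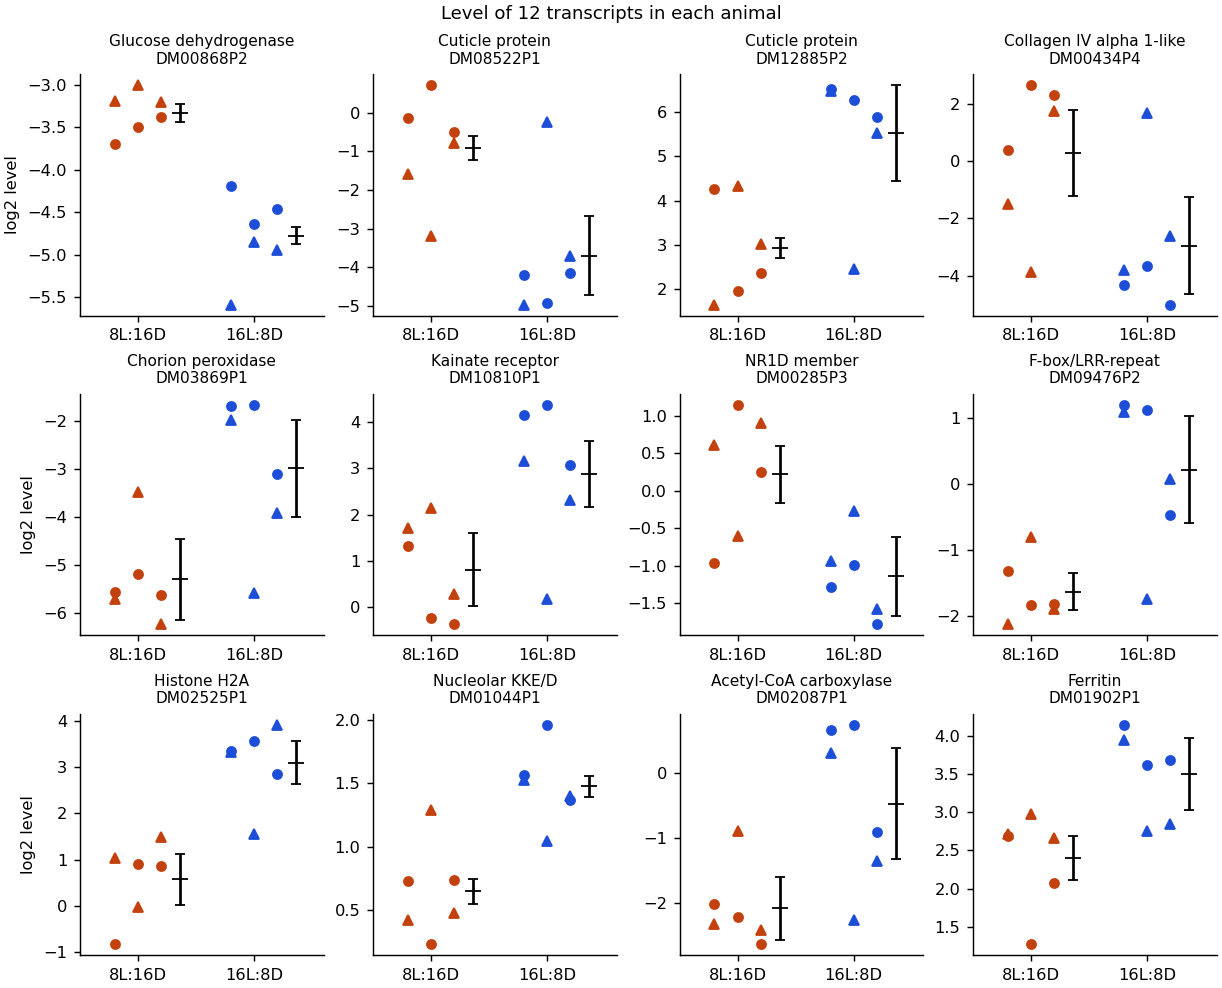
Level of 12 transcripts in each animal, as log2 signal relative to the 75th percentile of the array, with 8L:16D (orange) left of 16L:8D (blue); chambers 1, 2 and 3 run left to right within a photoperiod, circles are animals A, triangles animals B, and the black bars are means ± SD of the 3 chamber means. Glucose dehydrogenase and histone H2A separate all animals, while in most other panels animal B of 16L:8D chamber 2 lies away from its group, as for cuticle protein DM08522P1 (-0.24 against -4.97 to -3.71 in the others).

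The egg list held 8 transcripts of eggshell and yolk proteins, with a median log2 fold change of -1.46. Of these 5 fell, none rose and 3 were not called, against 10.6% called higher and 14.3% called lower among the probes of the table. Chorion peroxidases, which cross-link the eggshell in insects, made up 4 of the 5. DM03869P1 had levels of -5.65, -4.34 and -5.94 in the 8L:16D chambers and -1.84, -3.64 and -3.51 in the 16L:8D chambers (log2 fold change -2.31 ± 0.57, adjusted p = 0.175). The single animals ran from -6.24 to -3.48 in 8L:16D and from -5.59 to -1.68 in 16L:8D and overlapped through the animals B of chamber 2, at -3.48 in 8L:16D and -5.59 in 16L:8D. DM08907P2 had -3.35, -3.25 and -7.63 in 8L:16D and 3.11, -2.59 and 1.77 in 16L:8D (-5.50 ± 1.70, adjusted p = 0.223), and was well above background on 3 of 6 and 5 of 6 arrays. DM08909P1 fell by 2.86 ± 0.81 (adjusted p = 0.214) and was well above background in 1 of 6 animals of 8L:16D and 4 of 6 of 16L:8D. The size of its fall rests on dim signals, and its log2 fold change was -2.33 with these set to the floor of each array and -0.83 with normexp background correction. Another member, DM03972P1, fell by 1.29 ± 0.51 with chambers that overlapped.

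Vitelline membrane outer layer protein 1 (DM06044P1), a coat protein of the egg, fell by 0.60 ± 0.21 (adjusted p = 0.248). A second vitelline membrane transcript (DM11500P2) was not called, at -1.64 ± 0.68. The probes for vitellogenin, the yolk precursor, here fused with superoxide dismutase, were not called and had log2 fold changes of 0.76 ± 0.56 (DM01555P3) and -0.07 ± 0.42 (DM00375P2). The median of the egg list, taken relative to the 16L:8D mean in each animal, ran from -2.12 over a median of -1.496 to -0.42 in 8L:16D and from -1.65 over 0.25 to 0.81 in 16L:8D. The ranges overlapped. The list median was -2.11 without both animals B of chamber 2, -0.35 with the axes as covariates and -0.46 with the spike-in level as a covariate, the last 2 being over 1.5 times smaller.

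The cuticle and chitin list held 11 transcripts, 4 of which rose and 1 fell, against 10.6% called higher and 14.3% called lower among the probes of the table. Cuticle protein DM08522P1, a structural protein of the carapace, had levels of -0.86, -1.25 and -0.64 in the 8L:16D chambers and -4.58, -2.59 and -3.94 in the 16L:8D chambers (log2 fold change 2.79 ± 0.48, adjusted p = 0.1002), and stayed called in 23 of 24 settings. Cuticle protein DM12885P2, measured by the second cuticle probe above, moved the other way. It had 2.95, 3.15 and 2.68 in 8L:16D and 6.50, 4.36 and 5.72 in 16L:8D (-2.60 ± 0.67, adjusted p = 0.185). Its call was lost in 3 of 24 settings. These were the axes (-0.50) or the spike-in level (-1.88) as covariates and leaving out the arrays of the second scan date (-1.95). Within the shared slide the cuticle transcripts differed by 0.96 and -1.55.

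The other rises in that list were of enzymes that act on chitin, the fibre of the cuticle. Chitin deacetylases DM01941P4 and DM03975P4, which remove acetyl groups from chitin, rose by 3.00 ± 0.87 and 2.50 ± 0.73 (adjusted p = 0.216 for both), and were well above background on all 6 arrays of 8L:16D and on 1 and 3 of 6 of 16L:8D. With dim signals set to the floor of each array their log2 fold changes were 2.57 and 2.23, and with normexp 1.17 and 0.98. Chitinase DM07224P1, which degrades chitin, rose by 3.93 ± 1.30 (adjusted p = 0.234) with overlapping chambers. The list median was 0.97, but its animals ran from -0.60 to 1.88 in 8L:16D and from -0.46 to 1.12 in 16L:8D and overlapped, and it was 0.02 with the spike-in level as a covariate.

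Of 26 matrix and adhesion transcripts 5 rose and none fell, against 10.6% called higher and 14.3% called lower among the probes of the table, and 4 of the 5 were collagens. Beside DM00434P4 these were DM12303P2, a collagen alpha-1(XXIV) chain with a log2 fold change of 3.08, or 1.70 with dim signals at the floor, that was well above background on 4 arrays of 8L:16D and 1 of 16L:8D, and the collagen IV-like DM12010P3 and DM05719P1, with 1.77 and 1.59. Filamin-B (DM02408P1), which cross-links actin, had levels of 0.18, 0.68 and 0.57 in 8L:16D and -0.15, -0.08 and -0.48 in 16L:8D (0.71 ± 0.21, adjusted p = 0.216). Fasciclin-3 (DM10837P2), an adhesion protein, was not called, with -0.78 ± 0.28 (adjusted p = 0.252), although its animals did not overlap. The list median was 0.50, and -0.17 with the spike-in level as a covariate.

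Among 7 clock and light transcripts 1 rose and 1 fell, shares near the 10.6% and 14.3% among the probes of the table. The nuclear receptor subfamily 1 group D member (DM00285P3) belongs to the family of Rev-erb, a clock regulator in mammals, and of E75 in insects. It had levels of -0.18, 0.26 and 0.57 in the 8L:16D chambers and -1.11, -0.63 and -1.68 in the 16L:8D chambers. Chambers did not overlap but animals did, at -0.96 to 1.14 in 8L:16D and -1.78 to -0.27 in 16L:8D. The log2 fold change was 1.36 ± 0.28 (adjusted p = 0.145), 1.17 within the shared slide. An F-box/LRR-repeat transcript (DM09476P2), of a family that marks proteins for degradation, had -1.73, -1.32 and -1.86 in 8L:16D and 1.15, -0.31 and -0.20 in 16L:8D (-1.85 ± 0.44, adjusted p = 0.174). Only animal B of 16L:8D chamber 2, at -1.74, lay among the 8L:16D animals. The calls of DM00285P3 and DM09476P2 were both lost with the axes as covariates, at 0.57 and -0.69. Both were also lost with the spike-in level as a covariate, at 0.91 and -1.29. DM09476P2 was not called without the arrays of the second scan date either (-1.36).

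Transcripts of period, the core repressor of the insect clock, were not called. DM09904P4 had levels of -2.42, -2.56 and -2.24 in 8L:16D and -1.71, -2.17 and -2.04 in 16L:8D, with a log2 fold change of -0.43 ± 0.21 (adjusted p = 0.386), whose sign turned with the spike-in level as a covariate, and DM14516P3 had -0.06 ± 0.18 (adjusted p = 0.912). Arrestin and the rhodopsin transcripts lay between -0.17 and 0.12 and were not called. The list median was -0.06. All animals were taken soon after lights on in their own photoperiod, after 16 h of darkness in 8L:16D and 8 h in 16L:8D. These values hold for that point of the light cycle only.

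Of 3 sex determination transcripts none was called by limma, and 1 had an unadjusted p under 0.05. So did 13.9% of all transcripts, a share not taken over the chosen table. Transformer (DM06854P1), which in insects directs female splicing, had -3.87, -4.13 and -2.96 in 8L:16D and -4.78, -3.50 and -5.07 in 16L:8D (0.79 ± 0.38, adjusted p = 0.386), with overlapping chambers and a sign that turned to -0.12 with the axes as covariates. Transformer-2 (DM11280P1), its splicing partner, had -0.62 ± 0.24 (adjusted p = 0.277) with chambers that did not overlap. The testis development transcript DM04300P2 had -0.24 ± 0.27, or 0.22 with the spike-in level as a covariate.

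Among 7 transmitter transcripts 4 fell and none rose, against 14.3% called lower and 10.6% called higher among the probes of the table. A kainate-type glutamate receptor subunit (DM10810P1), a channel of excitatory synapses, had levels of 1.51, 0.95 and -0.05 in the 8L:16D chambers and 3.66, 2.27 and 2.69 in the 16L:8D chambers (log2 fold change -2.07 ± 0.48, adjusted p = 0.174). The chambers separated, and in the animals again only animal B of 16L:8D chamber 2, at 0.17, came down to the 8L:16D range. With the spike-in level as a covariate its log2 fold change was -0.75 and it was not called. The other kainate receptor transcript, DM10654P3, was not called (0.11 ± 0.18).

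Tyrosine hydroxylase (tyrosine 3-monooxygenase), the first enzyme of dopamine synthesis and so also a source of the catechols that tan cuticle, was measured by the probe pair above, and both fell. DM00246P1 had levels of -3.31, -3.26 and -3.42 in 8L:16D and -2.38, -2.85 and -1.97 in 16L:8D (-0.93 ± 0.29, adjusted p = 0.223), and DM06858P3 fell by 0.87 ± 0.32 (adjusted p = 0.256). The differences within the shared slide were -1.47 and -1.36. The high-affinity choline transporter (DM05417P2), which recycles choline at acetylcholine synapses, had levels of -3.07, -3.54 and -3.68 in 8L:16D and -2.89, -2.70 and -2.47 in 16L:8D (-0.74 ± 0.21, adjusted p = 0.206). Glutamine synthetase and glutamate decarboxylase were not called.

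Lists of nuclear and RNA-handling machinery had values that were lower in 8L:16D in nearly every member, with small folds. Against 55.3% of all transcripts lower in 8L:16D, values were lower in 22 of 22 spliceosome, 29 of 30 ribosome biogenesis, 10 of 10 DNA replication and chromatin, 9 of 9 mRNA export, 2 of 2 exosome, 17 of 17 translation factor, 10 of 10 chaperonin and 22 of 23 proteasome transcripts. The list medians were -0.61, -0.62, -0.64, -0.52, -0.49, -0.38, -0.37 and -0.36 in that order, and each kept its sign in all 23 settings in which it was recomputed. In the longer day 20L:4D, also relative to 16L:8D, they were -0.30, -0.19, -0.57, -0.31, -0.09, -0.26, -0.23 and -0.27, a difference not tested. Values below 16L:8D were thus not limited to the shorter days. The numbers called lower were 4, 9, 4, 1, 0, 0, 0 and 1, and none was called higher. Among the table's probes 14.3% were called lower and 10.6% higher. By limma's unadjusted p under 0.05, 2 exosome, 5 translation factor and 4 chaperonin transcripts passed, against 13.9% of all transcripts. That share and the 55.3% are over all transcripts, while the lists draw on the table chosen in part on these animals. Neither is therefore a like-for-like measure, and the matching shares of the table were not computed. Members of these lists are expressed together in many tissues, so they are not independent of each other.

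**Figure D4:**
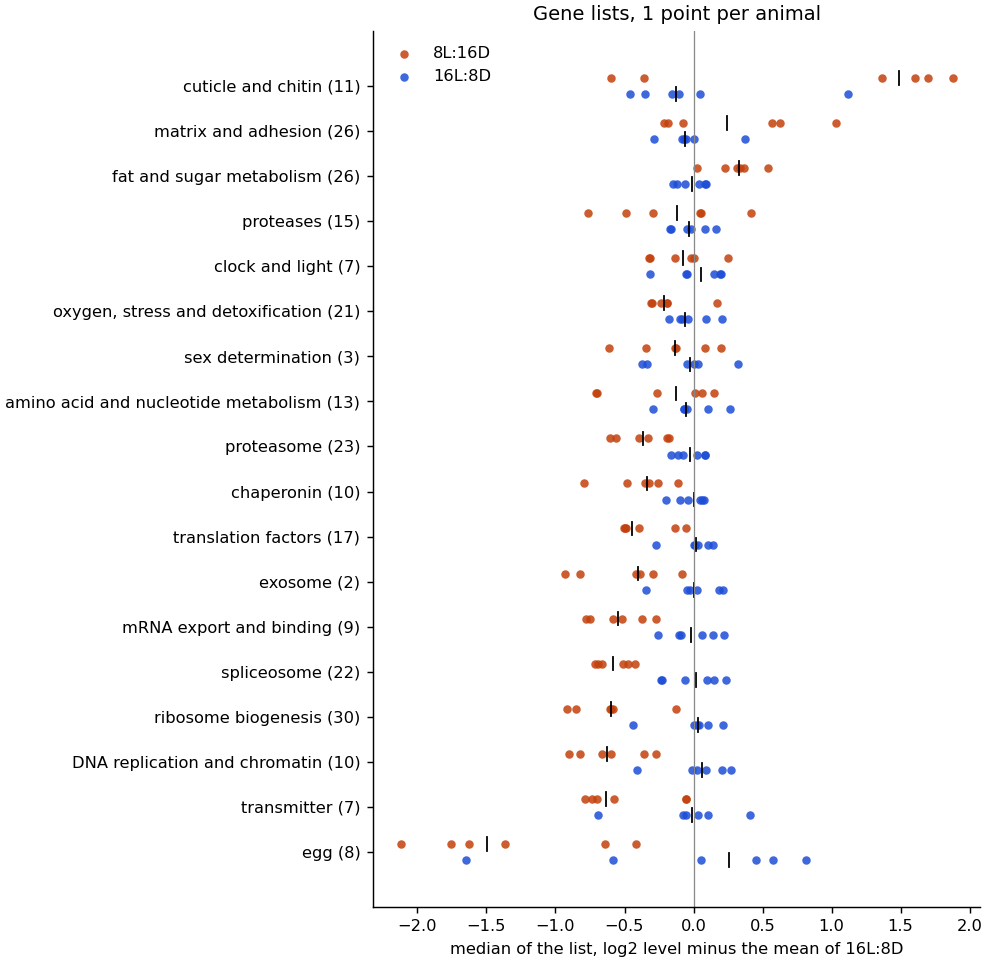
Median over the members of each of 18 gene lists in each animal, as log2 level minus the mean of 16L:8D (horizontal), with 8L:16D (orange) above 16L:8D (blue), the number of members in brackets and a black tick at the median of the 6 animals. The 6 and 6 animals separate for the spliceosome list (-0.71 to -0.42 in 8L:16D, -0.23 to 0.24 in 16L:8D) and overlap for the egg and cuticle lists.

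In ribosome biogenesis, the making of ribosomal subunits in the nucleolus, 9 of 30 transcripts fell, against 14.3% called lower among the table's probes. DM01044P1, similar to the 56 kDa nucleolar protein with KKE/D repeats, had levels of 0.57, 0.76 and 0.60 in the 8L:16D chambers and 1.54, 1.499 and 1.38 in the 16L:8D chambers (log2 fold change -0.83 ± 0.15, adjusted p = 0.1002). RRP15 (DM11175P1), needed for the large subunit, had 0.72, 0.80 and 0.84 in 8L:16D and 1.68, 1.44 and 1.68 in 16L:8D (-0.81 ± 0.15, adjusted p = 0.114). The chambers were tight and separate in both. UTP14 (DM03804P1), of the small-subunit processome, fell by 0.70 ± 0.14 (adjusted p = 0.145). The differences of these 3 within the shared slide were -0.08, -0.14 and -0.29. The H/ACA particle subunit DM04512P3 had the widest fall of the list, 1.09 on the log2 scale.

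Spliceosome transcripts, whose proteins remove introns, fell in 4 of 22 cases, a share near the 14.3% called lower among the table's probes. That count was 1 without any 1 of the 3 chambers of 16L:8D or with the spike-in level as a covariate. It was 0 with the axes as covariates and 10 with chamber as a random block. The U5 component DM03445P2 had -0.53, -0.09 and -0.16 in 8L:16D and 0.80, 0.54 and 0.55 in 16L:8D (-0.89 ± 0.20, adjusted p = 0.174), with animals that did not overlap. Cell division cycle 5 (DM14146P1) fell by 1.44 ± 0.34 (adjusted p = 0.174), and a serine/arginine-rich splicing factor (DM01218P1), with 1.64, 1.66 and 1.66 in 8L:16D and 2.37, 2.26 and 2.21 in 16L:8D, by 0.63 ± 0.18 (adjusted p = 0.212). The list median in single animals ran from -0.71 to -0.42 in 8L:16D and from -0.23 to 0.24 in 16L:8D, with no overlap. Of the mRNA export and binding list polyadenylate-binding protein (DM00340P3), which coats the tail of mRNA, fell by 0.80 ± 0.25 (adjusted p = 0.226), a call lost in 11 settings.

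Histone H2A (DM02525P1), a core protein of the nucleosome, fell the furthest among the chromatin transcripts. It had 0.11, 0.45 and 1.18 in the 8L:16D chambers and 3.33, 2.56 and 3.38 in the 16L:8D chambers (log2 fold change -2.51 ± 0.57, adjusted p = 0.174). All 6 animals of 8L:16D, at -0.82 to 1.48, lay below all 6 of 16L:8D, at 1.56 to 3.91. Its log2 fold change was -2.87 within the shared slide, and it stayed called in 23 of 24 settings. Topoisomerase 2 (DM00744P3), which untangles DNA, fell by 0.89 ± 0.21, a call lost in 9 of 24 settings, an H3-type histone (DM13192P4) by 0.74 ± 0.18 (adjusted p = 0.174 for both) and the variant H2A.V (DM04808P4) by 0.87 (adjusted p = 0.220). Flap endonuclease, DNA polymerase delta, Mcm2, a nucleosome assembly protein, histone H2B and a second H2A were not called, at -0.18 to -1.04.

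Proteasome subunits, the machine that degrades tagged proteins, moved by less than the 1.5-fold minimum in most cases. DM03131P3 (beta type-2) had -4.47, -4.59 and -4.54 in 8L:16D and -4.06, -4.01 and -3.91 in 16L:8D, and DM04062P3 (regulatory subunit 6A) 0.01, -0.17 and -0.03 in 8L:16D and 0.45, 0.50 and 0.54 in 16L:8D. The animals of both did not overlap, but neither was called, with log2 fold changes of -0.54 and -0.56. Only the non-ATPase subunit 7 transcript (DM00523P4) fell, by 0.66 (adjusted p = 0.233). The T-complex chaperonin, which folds actin and tubulin, had as its leading members DM00396P1 and DM00208P2, both named subunit beta, with -0.48 ± 0.14 and -0.51 ± 0.20, neither called.

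Of 26 transcripts of fat and sugar metabolism 4 rose and 3 fell, against 10.6% called higher and 14.3% called lower among the probes of the table, and the list median was 0.42. Beside acetyl-CoA carboxylase, phosphoenolpyruvate carboxykinase (DM01903P2), the entry step of gluconeogenesis, had -3.13, -2.89 and -3.82 in 8L:16D and -1.65, -2.53 and -2.63 in 16L:8D and fell by 1.01 ± 0.28 (adjusted p = 0.208), and alpha-amylase (DM00223P2), a starch-digesting enzyme, fell by 1.23 (adjusted p = 0.222). ATP-citrate synthase (DM00824P2), which supplies acetyl-CoA for lipid synthesis, rose by 0.70 (adjusted p = 0.250), glucose-6-phosphatase (DM10507P2), which releases free glucose, by 0.96 (adjusted p = 0.326) and a fatty acyl-CoA reductase (DM14584P3), which makes fatty alcohols, by 2.13 (adjusted p = 0.250). The size of the reductase rise rests on dim signals. Its log2 fold change was 0.46 with these set to the floor of each array and 0.18 with normexp, both short of the 1.5-fold minimum. The remaining rise was that of the acyl-CoA synthetase above. Malic enzyme (DM01669P3), a source of NADPH, was 1.57-fold higher with animals that did not overlap and was not called, as it missed the F test over the 5 photoperiods. Of 13 transcripts of amino acid and nucleotide metabolism 2 rose, a share near the 10.6% called higher among the probes of the table. They were argininosuccinate synthase and S-adenosylmethionine decarboxylase (DM05948P3), a step of polyamine synthesis. The decarboxylase rose by 0.84 ± 0.18 (limma adjusted p = 0.174), and its call was lost in 19 of 24 settings.

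Oxygen, stress and detoxification transcripts moved both ways, 3 up and 4 down of 21, against 10.6% and 14.3% among the table's probes. A UDP-glucuronosyltransferase (DM04941P2), which conjugates foreign and signalling molecules with a sugar acid, had -5.49, -5.70 and -5.99 in the 8L:16D chambers and -0.64, -2.99 and -3.17 in the 16L:8D chambers (log2 fold change -3.46 ± 0.73, adjusted p = 0.160), and no animals overlapped. Ferritin (DM01902P1), the iron store, had 2.70, 2.13 and 2.36 in 8L:16D and 4.04, 3.19 and 3.26 in 16L:8D (-1.10 ± 0.26, adjusted p = 0.174). Hemoglobin (DM01567P2), the oxygen carrier that *Daphnia* make at low oxygen, rose by 1.54 ± 0.60 (adjusted p = 0.281) and was well above background on all 6 arrays of 8L:16D and 1 of 6 of 16L:8D. Its log2 fold change was 1.10 with dim signals set to the floor and 0.29 with normexp. Cytochrome P450 305a1 (DM12027P2), of a family of oxidising enzymes, was called lower but was well above background in 0 of 6 animals of 8L:16D and 2 of 6 of 16L:8D, and its fold is not given.

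Of 15 protease transcripts 2 rose and 4 fell, against 10.6% called higher and 14.3% called lower among the probes of the table. Carboxypeptidase B (DM04713P2), which trims peptides in the gut, and the clip-domain protease DM10610P1, of a family that acts in insect immunity and development, rose by 3.68 and 3.46. With dim signals set to the floor of each array these became 2.18 and 2.67, and with normexp 1.34 and 1.58. The clip-domain proteases DM02546P2 and DM08443P3 fell by 1.61 and 1.91, beside the chymase and the cathepsin. The log2 fold change of DM08443P3 was -1.43 with dim signals at the floor and -0.56 with normexp. The list median was 0.25 and changed sign in 2 of 23 settings, to as low as -0.49 with the spike-in level as a covariate. Over all 18 lists, 259 members in all, 21 rose and 41 fell, shares near the 10.6% and 14.3% of the table the members come from, and 14 list medians lay below 0 and 4 above.

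Some transcripts were near background in 1 photoperiod and bright in the other. Among calls with non-overlapping chambers and a dim signal on at least 1 of the 12 arrays, 80 rose and 62 fell, and the widest of each were mostly without a protein name. DM11268P4 was not well above background on any of the 6 arrays of 8L:16D, with measured levels of -8.59 to -8.09, and had chamber levels of 0.45, -3.90 and -3.41 in 16L:8D, well above background on 4 of 6. It was at least 14.9-fold lower in 8L:16D (limma adjusted p = 0.0795), where a bound sets the mean of the brighter group against the lowest signal well above background on each array of the dimmer group, or the probe's own signal if that was higher. DM05344P4 was at least 21.98-fold lower by the same rule (adjusted p = 0.206), with 16L:8D chambers at 2.92, -2.11 and -5.97, and lost its call in 12 of 23 settings.

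DM06742P2 had -4.05, -3.27 and -4.44 in the 8L:16D chambers and 6.59, 1.02 and 2.10 in the 16L:8D chambers, the widest fall of any call (-7.15 ± 1.52, adjusted p = 0.160). Its animals in 16L:8D ran from -4.79 over a median of 6.12 to 6.85. DM05761P3 fell by 6.58 ± 1.82. DM09308P2, DM11740P3, DM05013P2 and DM04876P2 rose, with log2 fold changes of 5.97, 4.75, 4.73 and 4.52, which became 4.95, 3.97, 3.03 and 4.06 with dim signals set to the floor of each array, so their sizes and their order rest on dim signals. DM09308P2 had 0.97, 0.44 and 0.52 in the 8L:16D chambers and -7.74, -3.82 and -4.41 in the 16L:8D chambers, and was well above background on 6 of 6 and 3 of 6 arrays. For DM12295P3, which had no database match and a small adjusted p (0.109), the levels were 3.50, 2.27 and 2.89 in 8L:16D and -1.70, 0.52 and -0.20 in 16L:8D. Of the 518 calls, 302 were well above background on all 12 arrays, and 10 were below it on every array of both photoperiods.

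Set directly against its neighbours in day length, 8L:16D differed from fewer transcripts. Against 12L:12D 141 (0.983%) were called, 65 (0.453%) higher and 76 (0.53%) lower in 8L:16D, none past an adjusted p of 0.05 by limma (1041, or 7.26%, at an unadjusted p under 0.05). Against 4L:20D 272 (1.9%) were called, 121 (0.844%) higher and 151 (1.05%) lower, 1 of them (0.00697% of transcripts) past an adjusted p of 0.05, the unnamed DM00738P2 (0.81 ± 0.10, adjusted p = 0.0336). These comparisons share the 8L:16D animals with the comparison above, so the counts are not independent of it. Without 8L:16D chamber 3 the count against 12L:12D was 371, and without chamber 1 and chamber 3 in turn the count against 4L:20D was 420 and 161.

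Glucose dehydrogenase DM00868P2 differed from both neighbours. Its mean level was -2.42, -3.33, -4.12, -4.78 and -4.85 at 4, 8, 12, 16 and 20 h of light per day. It was 0.80 ± 0.13 higher in 8L:16D than in 12L:12D (adjusted p = 0.222) and 0.91 ± 0.13 lower than in 4L:20D (adjusted p = 0.092). DM15253P2 and DM05827P3 ran the other way with hours of light, with means of -6.07, -5.52, -4.24, -3.71 and -3.52 and of 4.53, 5.30, 5.74, 6.73 and 7.09 at 4, 8, 12, 16 and 20 h. DM15253P2 was called lower than in 12L:12D (-1.29 ± 0.20) and DM05827P3 higher than in 4L:20D (0.77 ± 0.20), and the other neighbour of each was not called.

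Other transcripts had an order of levels that did not follow the hours of light. Tyrosine hydroxylase DM00246P1 had -2.07, -3.33, -3.89, -2.40 and -2.81 at 4, 8, 12, 16 and 20 h of light, and was called lower in 8L:16D than in 4L:20D (-1.26 ± 0.29). Cuticle protein DM08522P1 was highest in 12L:12D, at 0.50, and was called lower in 8L:16D than there (-1.42 ± 0.48). Glutamine synthetase (DM01623P1), which recycles glutamate, was called higher in 8L:16D than in 12L:12D (0.62) and lower than in 4L:20D (-0.69). The F-box transcript DM09476P2 had -1.60, -1.64 and -1.64 at 4, 8 and 12 h of light against 0.22 and -0.24 at 16 and 20 h, and its 8L:16D value was not called against either neighbour. The kainate receptor DM10810P1 had 1.49, 0.81 and -0.15 at 4, 8 and 12 h of light and 2.87 and 3.07 at 16 and 20 h. Over the lists the medians of 8L:16D minus 12L:12D lay within 0.42 of 0 and held at most 1 called rise and 2 called falls each. For 8L:16D minus 4L:20D the cuticle and chitin median was 1.00 with 3 called rises, the transmitter median was -0.68 with 3 called falls, and the other list medians lay between -0.09 and 0.36 with at most 2 called rises and 1 called fall each.

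**Figure D5:**
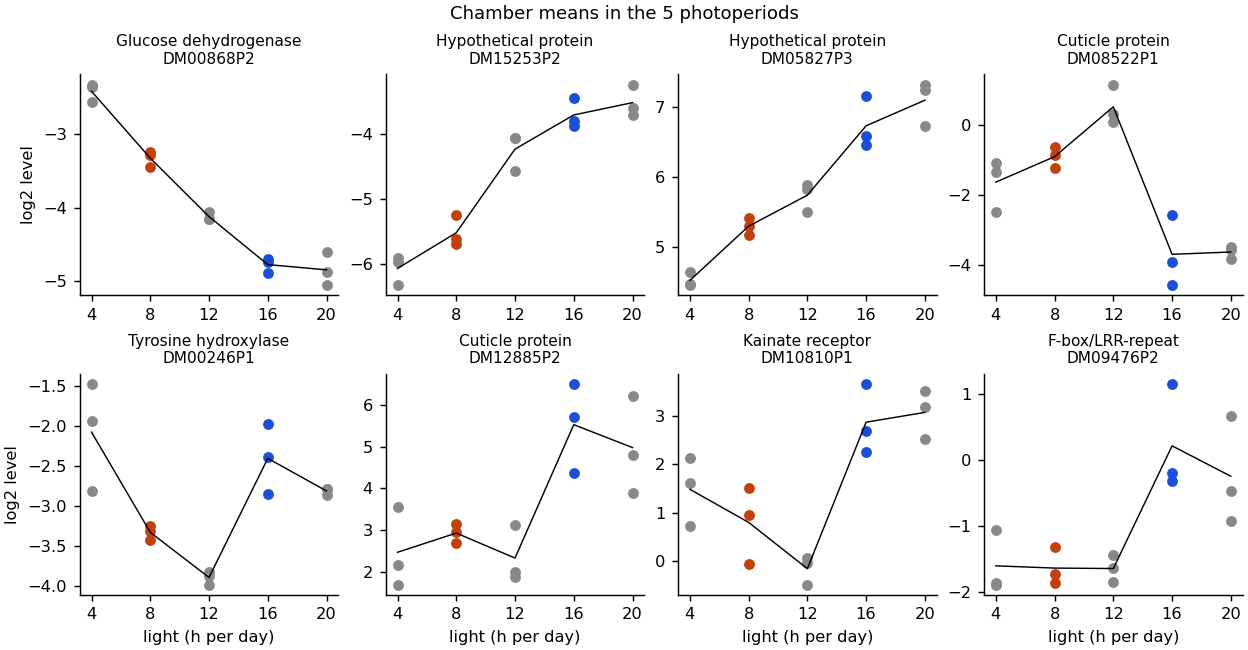
Chamber means of 8 transcripts (vertical, log2 level) in the 5 photoperiods by hours of light per day (horizontal), with 8L:16D in orange, 16L:8D in blue, the others in grey and a line through the photoperiod means. Glucose dehydrogenase DM00868P2 runs down from -2.42 at 4 h to -4.85 at 20 h, DM15253P2 and DM05827P3 run up, and the cuticle, tyrosine hydroxylase, kainate receptor and F-box transcripts follow other orders.

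Spread between animals was wider in 8L:16D. Over all transcripts the median SD between the 6 animals was 0.407 for 8L:16D and 0.302 for 16L:8D, and between the 3 chamber means 0.275 for 8L:16D and 0.193 for 16L:8D. Among the 518 called transcripts the SD between animals was 1.04 for 8L:16D and 0.933 for 16L:8D, and between chambers 0.513 for 8L:16D against 0.602 for 16L:8D. Within the 1 slide that carried both photoperiods, animal B of 8L:16D chamber 2 and animal A of 16L:8D chamber 3, 384 of 517 calls with a value had the sign of the whole comparison, 180 of them higher and 204 lower, although animal B of 8L:16D chamber 2 is among those that stood apart on axis 2. Both arrays are among the 12 that made the calls, so the count is a description only.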

How the data were processed

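Each of 30 arrays held RNA of 1 animal. The deposited intensity values are the processed signals that Agilent Feature Extraction gave the authors for each spot, background-subtracted and spatially detrended (version 9.5.1 per the labels, 10.7.3.1 per the file headers). The authors also deposited a log2 table, brought to a common 75th percentile and then to each probe's median, which correlated with the recomputed values at 0.999897 or more on every array and was used as an alternative, its array medians lying between -0.09 and 0.15. Of 15744 spots per array 536 were controls and were left out, as were 188 outlier spots over all arrays, and 870 probes had 2 spots, which were averaged.

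Animals of a chamber were averaged, and limma 3.58.1 (R 4.3.3, statmod 1.5.0) was fitted over the 15 chambers of all 5 photoperiods with empirical Bayes moderation (10 residual degrees of freedom, prior 2.00) and Benjamini-Hochberg adjustment. The study's methods tested animals, which is an alternative here. The fit was tested on simulated data of this comparison over 14334 probes with 200 changed. There 64% of the 2-fold and 95% of the 4-fold changes were called. Of the unchanged probes 43 were called, and 9 passed an adjusted p of 0.05 by limma. The simulated noise was drawn independently for each probe, while much of the real spread within photoperiods was shared between probes. The 43 are therefore no estimate of the false calls in the real data. Chambers are separate vessels in 1 box per photoperiod, so p values measure the spread between those vessels.

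Named transcripts are the 10 widest named rises and falls well above background on all 12 arrays, the 4 widest of each among dimmer calls, the 3 smallest adjusted p in each direction and the 3 smallest p in each of 18 lists, and list members beyond these were chosen after their values were seen. Members, lists and tests were chosen with earlier results of these data known. Names and probe sequences come from the study's table of 959 probes. Alternatives changed the unit, block, normalization, background correction, filter, moderation and samples; normexp used median signals with their local background. Python 3.11.15, numpy 2.4.6, pandas 2.3.3 and matplotlib 3.10.9 made the summaries and plots.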

Additional observations from a re-analysis of the deposited data

Results flagged for a closer look

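In 21 of 184 groups of 6 animals examined, the highest or lowest animal was separated from its nearest neighbour by more than Dixon's critical share of the whole range of the group, where chance gives about 1 in 20 groups, or 9.2. Of these, 14 were animal B of 16L:8D chamber 2, the animal that lay among the 8L:16D animals on axis 2. It was high for collagen DM00434P4 (1.67 against -5.01 to -2.61 in the other 5 animals), cuticle protein DM08522P1 (-0.24 against -4.97 to -3.71), argininosuccinate synthase DM00989P1 (-3.40), amine sulfotransferase DM03555P2 (-1.53), the unnamed DM05013P2 (1.07) and chitin deacetylase DM01941P4 (-0.39). For the last 2 it was the only 16L:8D animal well above background. It was low for phospholipase DM03155P1 (-3.69), cuticle protein DM12885P2 (2.44 against 5.54 to 6.52), amyloid beta A4 DM05492P2 (-0.29), the unnamed DM05761P3 (-4.98), UTP14 DM03804P1 (1.92) and chorion peroxidase DM08907P2 (-7.90 against 0.09 to 3.44). It was also low for the ribosome biogenesis median (-0.44) and high for the cuticle and chitin median (1.12). What set this animal apart was not tested.

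Animal B of 8L:16D chamber 2 was high for cathepsin O DM04463P1 (-0.44 against -4.64 to -3.28) and acetyl-CoA carboxylase DM02087P1 (-0.90 against -2.63 to -2.02). Animal A of 8L:16D chamber 3 was high for the bifunctional aminoacyl-tRNA synthetase DM12749P1 (3.66), and animal A of 16L:8D chamber 3 was low for it (3.22). Animal A of 16L:8D chamber 3 was also low for the translation factor median (-0.27). Animal B of 16L:8D chamber 3 was low for malic enzyme DM01669P3 (-2.98), and animal A of 8L:16D chamber 1 was high for the oxygen, stress and detoxification median (0.17).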

How the results depend on the processing

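The 518 calls between 8L:16D and 16L:8D became 1154 when only the 6 chambers of both photoperiods were fitted, which also leaves out the F test over the 5 photoperiods, 282 with normexp background correction, 56 with both axes as covariates, 1029 without the F test and 331 at a 2-fold minimum. Alternatives chosen after seeing the data gave 340 with scan date as a block, 117 without the arrays of the second scan date and 187 with the spike-in level as a covariate, and 863, 754 and 1146 without animal B of 16L:8D chamber 2, animal B of 8L:16D chamber 2 or both. Leaving out 1 chamber gave 287 to 616 calls, with 287 without 16L:8D chamber 1 and 314 without its chamber 3. The 4 transcripts past an adjusted p of 0.05 by limma became 29 with animals as the unit, 12 under a random block of chamber, 8 under the scan block, 1 without the second scan date, and 351, 202 and 1101 without those animals in the same order. The count was 0 with 6 chambers, normexp, the axes or the spike-in level, where 2009, 867, 554 and 662 transcripts had an unadjusted p under 0.05. It ran from 1 to 9 without 1 chamber, with 2 without 8L:16D chamber 1 or 2, 1 without its chamber 3 and 9 without 16L:8D chamber 3. The share of calls that were lower, 51.9%, was 68.9% under a slide block and 41.1% with the axes. The cause of these changes was not tested.

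Against 12L:12D, 141 calls became 93 with normexp and 113 to 371 without 1 chamber, 371 without 8L:16D chamber 3. Against 4L:20D, 272 became 158 with the random block, 131 with normexp and 161 to 420 without 1 chamber, 420 without 8L:16D chamber 1 and 161 without its chamber 3. Signs turned for period DM09904P4 (0.0399) and testis development protein DM04300P2 (0.22) with the spike-in level, and for transformer DM06854P1 (-0.12) with the axes. None of these 3 was called in the comparison reported or where its sign turned, but period was called with slide as a block (-0.62) and transformer without 16L:8D chamber 2 (1.27). Other named fold changes kept their direction in all settings run, with a call lost in 205 and gained in 39 instances of a transcript and a setting. In their deviations from the photoperiod means, same-numbered chambers correlated at 0.05, -0.37 and -0.34, and differently numbered chambers at -0.25 to 0.48. With 3 chambers per photoperiod these values cannot settle whether same-numbered chambers had anything in common. With the replicate block 477 transcripts were called, 413 of them among the 518, and 3 passed an adjusted p of 0.05. Dim signals limit the 216 calls that were not well above background on all 12 arrays.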
